A study of Mus musculus with 20 samples.

Results

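Skeletal muscle takes up long-chain fatty acids and oxidises them in its mitochondria, and the 33 genes described here encode the proteins of that route or regulate it. They form a named list of symbols running from uptake at the capillary to the electron carriers that link β-oxidation to the respiratory chain. Each gene was represented by its single-gene probe set with the highest mean log2 intensity over all samples. Such a probe set was found for 31 of the 33, among 11200 genes tested in all. For Acsl1, an acyl-CoA synthetase, the platform annotation lists no probe set with a single gene, and the only probe set listed for Cpt1b, the muscle form of carnitine palmitoyltransferase 1, names several genes. Neither is analysed here.

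RNA came from the gastrocnemius, a mixed calf muscle, of mice given JA16 or saline, with 10 samples in each group. JA16 is an antibody against myostatin, the secreted protein that restrains muscle growth. It was injected into the peritoneum on day 1 at 0.12 mg per g body weight and on day 3 at 0.09 mg per g, and muscle was collected on day 5. The control mice received saline. No strain, age, sex or genetic change is given for either group, and the labels do not tie each sample to a mouse of its own, so p-values measure the spread between these samples only. Samples are named by group and replicate number, and samples with the same number in the 2 groups are called a pair.

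In background terms, fatty acids reach the fibre after lipoprotein lipase frees them from circulating triglyceride, cross the membrane with the help of CD36 and fatty acid transport proteins, and are carried in the cytosol by a binding protein. They are activated to acyl-CoA, enter the mitochondrion through the carnitine shuttle, and are shortened by repeated dehydrogenation, hydration, a further oxidation and thiolysis. Malonyl-CoA restrains their entry, and the PPAR and ERR nuclear receptors with their coactivator PGC-1α drive many of these genes. Slow, oxidative fibres rely on the route more than fast, glycolytic ones.

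Promoter sequence was available from RefSeq (GRCm38.p6) for 27 of the 31 measured genes. Sequences are shown for Hadhb, which shares most of its start region with Hadha, and for Acadm, whose start region holds a motif of the ERR receptors. Hadha and Hadhb encode the α and β subunits of the mitochondrial trifunctional protein and lie head to head on chromosome 5, with 272 bases between their first bases (30154980 for Hadha and 30155253 for Hadhb). The 250 bases upstream of Hadhb (chr5:30155003-30155252, plus strand) therefore hold 228 bases that also lie within 250 bases upstream of Hadha, marked in capitals. Acadm encodes medium-chain acyl-CoA dehydrogenase. The 250 bases upstream of it (chr3:153944644-153944893, minus strand) hold AAGGTCA, the core motif of the ERR receptors, read on the opposite strand as the capitals. The member Esrra encodes 1 of these receptors.
Hadhb upstream: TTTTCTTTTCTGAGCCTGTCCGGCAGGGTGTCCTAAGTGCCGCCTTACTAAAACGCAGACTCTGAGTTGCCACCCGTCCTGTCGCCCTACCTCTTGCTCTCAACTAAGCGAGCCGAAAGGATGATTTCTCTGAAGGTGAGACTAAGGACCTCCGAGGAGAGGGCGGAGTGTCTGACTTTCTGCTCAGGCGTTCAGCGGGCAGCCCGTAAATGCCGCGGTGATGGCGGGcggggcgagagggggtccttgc
Acadm upstream: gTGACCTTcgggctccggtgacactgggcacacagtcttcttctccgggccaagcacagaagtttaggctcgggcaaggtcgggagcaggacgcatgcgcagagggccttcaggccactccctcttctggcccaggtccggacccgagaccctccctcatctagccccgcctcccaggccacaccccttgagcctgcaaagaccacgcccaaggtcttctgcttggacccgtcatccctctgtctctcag
The motif AAGGTCA, searched on both strands of windows from 250 bases before to 50 bases after the gene start, occurred in 1340 of 32851 windows (4.08%). Acadm was the 1 of 27 member genes with a match, which is not above the share of all windows. A PPAR-type direct repeat of AGGTCA spaced by 1 base, searched the same way, occurred in 11 windows (0.0335%) and in 0 of the 27 member windows. A match is a description of the letters, and its absence says only that these letters are not in the window.

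The arrays gave MAS5 intensities that were scaled to a common trimmed mean of 500, with medians of 38.9 to 77.1 per array. Intensities of different probe sets are not comparable with each other, so levels of members are set side by side only within a gene. Marker intensities are summed over probe sets, and the brightest probe sets weigh most in those sums. All 9 skeletal muscle markers were detected, with a summed intensity of 136951 to 183765 in JA16 and 135556 to 173340 in Saline samples. Of 6 cardiac markers, 5 were too dim to be tested. The arrays fell into 2 sets by the β-actin 3′ to 5′ probe ratio, a sign of RNA integrity and labelling, at 0.48 to 0.64 (log2) on the 8 arrays of replicates 7 to 10 and 1.33 to 1.84 on the 12 arrays of replicates 1 to 6. Both treatments are equally represented in each set. JA16 replicate 3 and Saline replicate 7 stood apart in the marker lists. The first lacked most of the slow fibre signal described further on. In Saline replicate 7 the 8 macrophage markers averaged 1.72 (log2) above their all-sample means, and Tnnt2, the cardiac and immature form of troponin T, lay 3.51 above. Over all genes, JA16 replicate 8 was the lowest of all 20 samples for 16.2% and the highest for 17.2%, the largest shares of any sample. Among the members it was the lowest for 5 and the highest for 8. Counts over the members are given with and without JA16 replicate 3 and Saline replicate 7.

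No member differed between JA16 and Saline at a limma adjusted p under 0.05 (0 of 31; 0.0357% of all genes tested passed). None passed at an unadjusted p under 0.05 either, against 2.65% of all genes. With the replicate number as a block, again 0 members passed the adjusted threshold, against 0.277% of all genes, and 2, Cd36 and Pnpla2, had an unadjusted p under 0.05, against 16.2% of all genes. The intensity ranges of JA16 and Saline samples overlapped for each of the 31 members, as they did for every gene tested (0% of genes did not overlap). Log2 fold changes, JA16 over Saline, ran from -0.27 for Cd36 to 0.25 for Pnpla2, with a median of -0.030 over the members and -0.016 over all genes. In all, 11 members had a positive and 20 a negative value, while 45.8% of all genes had a positive one. This split depends on the scaling: with array medians centred the median over all genes was 0.054, and 21 members and 61.3% of all genes had positive values.

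How large a difference the data allow is given by the intervals. Standard errors of the members' log2 fold changes ran from 0.084 to 0.298 with a median of 0.15, and the median over all genes was 0.198. The 95% confidence interval lay within a 2-fold change in either direction for all 31 members, and for 92.1% of all genes. It lay within a 1.5-fold change for 23 of the 31 members and 57.6% of all genes. The 8 genes whose intervals reached further were Cd36, Acads, Echs1, Pnpla2, Ucp3, Mlycd, Ppara and Ppargc1a. With the replicate block the 1.5-fold bound held for 30 members, all but Ppara, and for 81.3% of all genes.

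**Figure D1:**
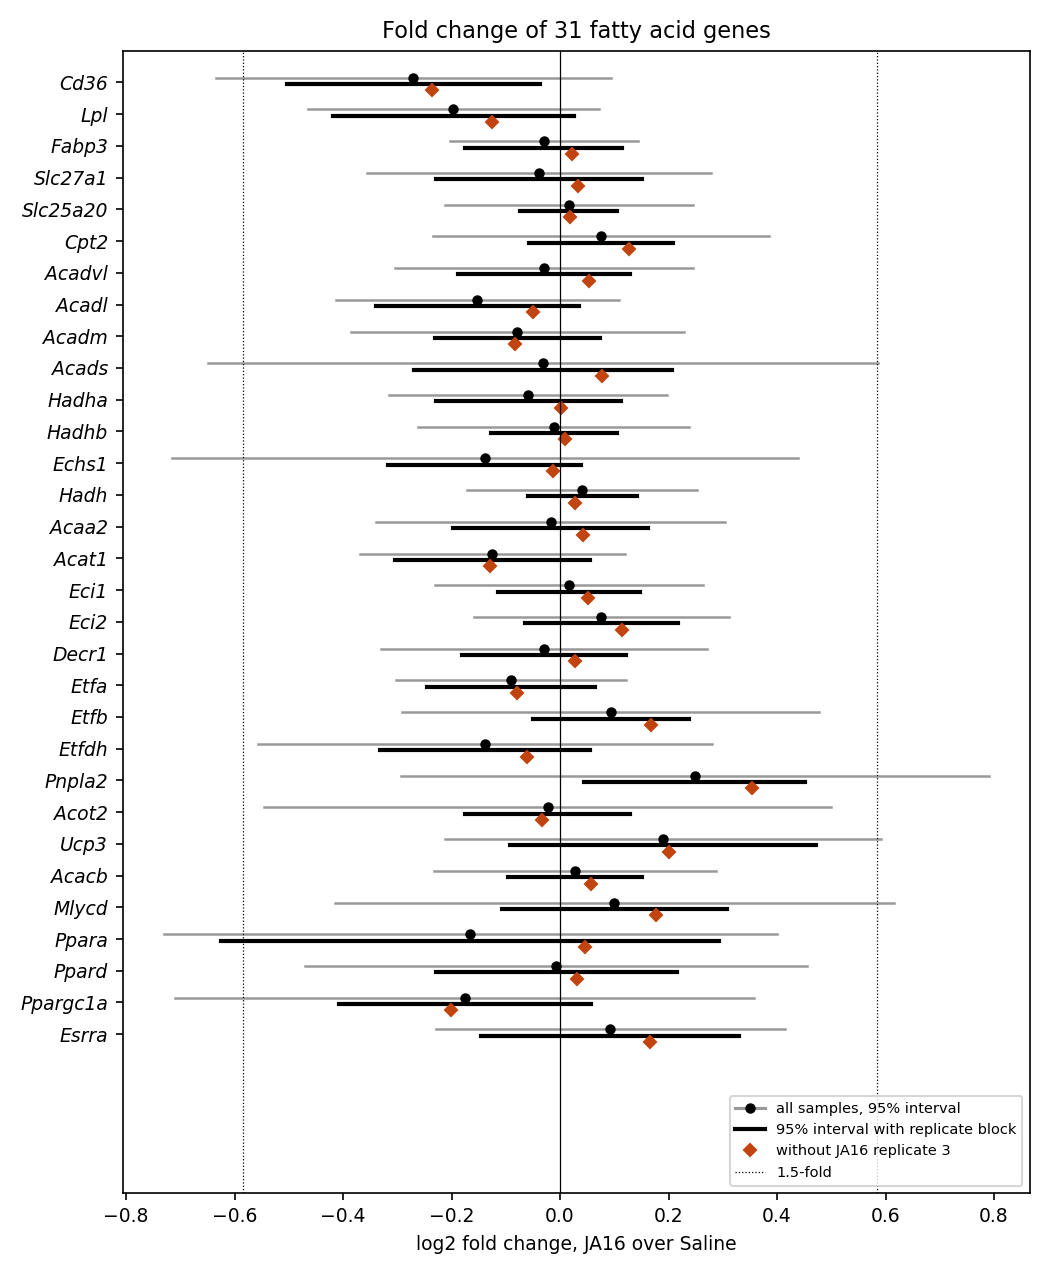
Log2 fold change of each measured member, JA16 over Saline (x axis), for genes in order of role down the page; dots are values over all samples with their 95% intervals (grey without, black with the replicate block), diamonds are values without JA16 replicate 3 and dotted lines mark 1.5-fold. All grey intervals include 0, the black ones of Cd36 and Pnpla2 do not, and the values run from -0.27 for Cd36 to 0.25 for Pnpla2 with all samples in.

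Uptake and delivery came first in the route, and its 4 members had negative values with a median of -0.12, although Fabp3 (0.039) and Slc27a1 (0.031) were positive with array medians centred. Cd36, the fatty acid translocase of the plasma membrane, had a lowest, median and highest intensity of 1324, 2863 and 4296 in JA16 samples and 2196, 3214 and 4582 in Saline samples. A few JA16 samples lay below the lowest Saline sample, and the rest of both groups shared a range. The log2 fold change was -0.27 (SE 0.18; limma adjusted p = 0.9998), and JA16 was the lower sample in 8 of 10 pairs. With the replicate block its limma adjusted p was 0.255 (SE 0.11, unadjusted p = 0.0261). All 3 Cd36 probe sets gave negative values, the other 2 at -0.38 and -0.34. By array set it stood at -0.29 for replicates 7 to 10 and at -0.25 for replicates 1 to 6. Without JA16 replicate 8, the lowest sample, the value over all replicates was -0.16.

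Lpl, lipoprotein lipase, had 6066, 9664 and 14398 as its lowest, median and highest intensity in JA16 samples and 8258, 11056 and 13957 in Saline samples. The groups overlapped over most of their range, and the lowest JA16 sample was replicate 3. Its log2 fold change was -0.20 (SE 0.13), and -0.13 without that sample. The other Lpl probe set gave -0.35. Fabp3, the cytosolic fatty acid binding protein of heart and muscle, had the smallest SE of the members in the comparison without the block, with a lowest, median and highest intensity of 14945, 20938 and 27353 in JA16 samples and 16627, 21651 and 24453 in Saline samples. Its value was -0.030 (SE 0.084), and 0.022 without JA16 replicate 3, which was again the lowest sample. The other Fabp3 probe set, with a mean of 116 in JA16 and 132 in Saline samples, gave -0.26. Slc27a1, the transport protein FATP1, stood at -0.04 (SE 0.15) and at 0.034 without JA16 replicate 3. Less RNA per cell and fewer cells of a type cannot be told apart in these bulk samples, which matters for Cd36 and Lpl because capillary endothelium and adipocytes express them too. Endothelial markers had a summed intensity of 13682 to 19731 in JA16 samples and 15661 to 19041 in Saline samples, with 8 of 10 genes at negative values and a median of -0.17. That median was -0.089 without JA16 replicate 3. The macrophage list also had 7 of 8 genes at negative values, with a median of -0.16, but Saline replicate 7 weighed on these values. Averaged over the list, that sample lay 1.72 (log2) above the all-sample means, the highest of the Saline samples. The median sample lay at -0.14 in JA16 and at -0.20 in Saline. Adipocyte markers summed to 31610 to 59072 in JA16 samples and 39034 to 50400 in Saline samples, with 7 of 8 genes at negative values and a median of -0.26, although that list holds Cd36 and Lpl themselves. The largest term of that sum was Car3, the 1 gene with a positive value. Its mean was 20181 in JA16 and 19449 in Saline samples, against 1092 and 841 for Adipoq, so the sum says little about Adipoq. Adipoq, the fat cell hormone adiponectin, ran from 84.1 to 6614 in JA16 samples and from 216 to 1508 in Saline samples, while Cfd and Plin1 had no single-gene probe set and Lep was too dim to be tested. None of these marker genes passed the test, and their part in the Cd36 and Lpl values was not tested.

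**Figure D2:**
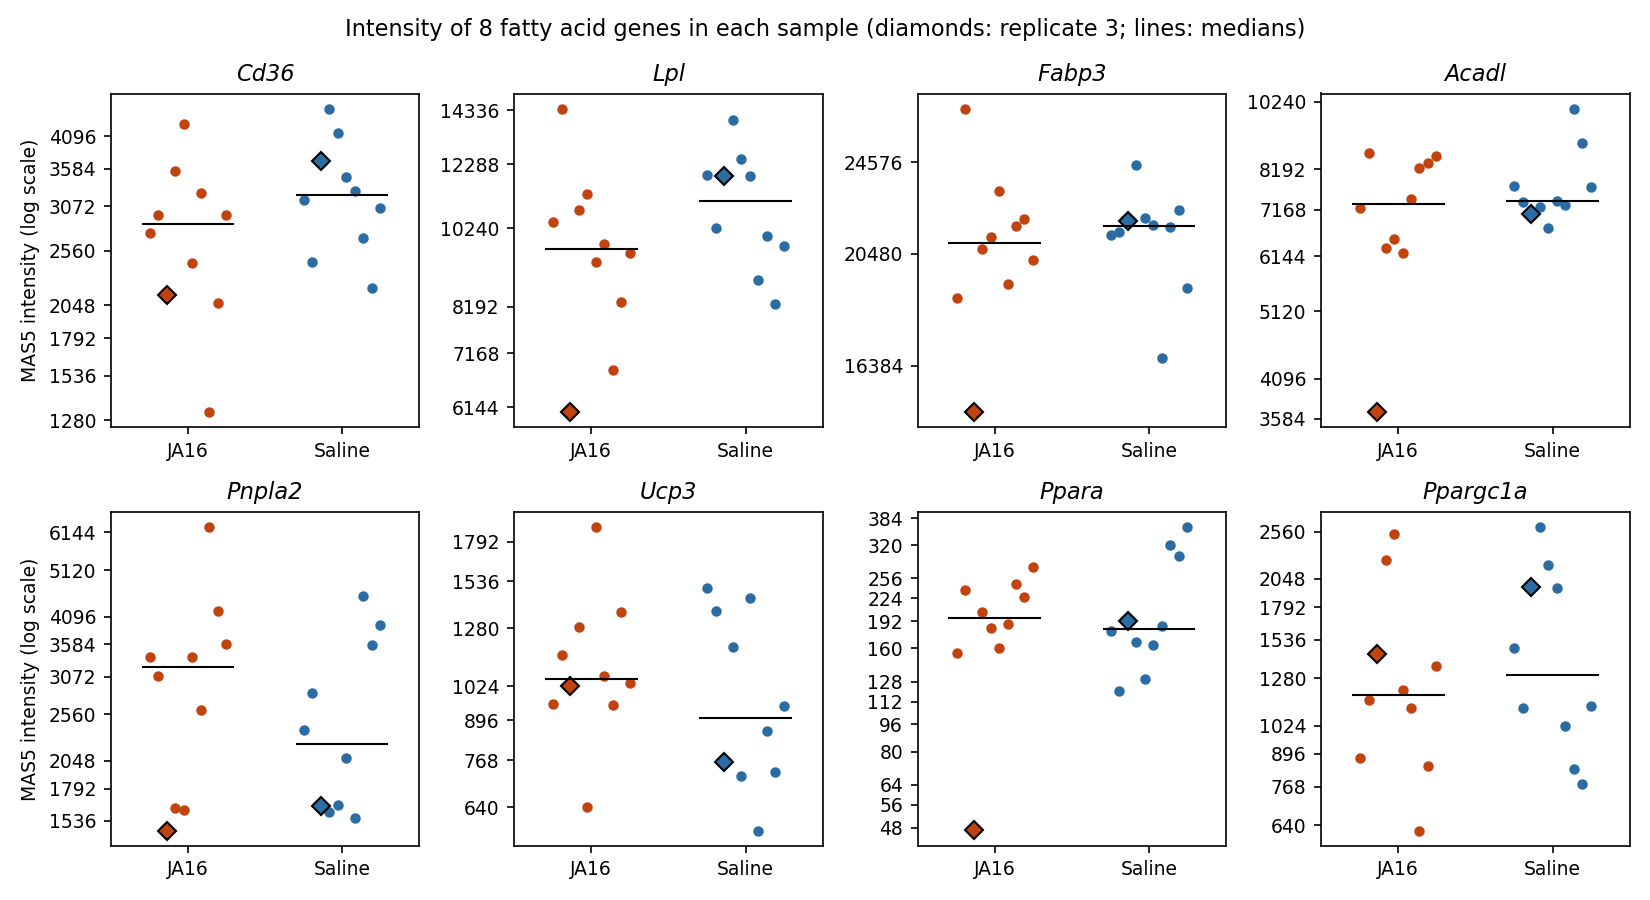
MAS5 intensity (y axis, log scale, a separate scale in each panel) of 8 members in each of the 10 JA16 and 10 Saline samples; points are samples, diamonds are replicate 3 of each group and lines are group medians. The groups overlap in every panel, and JA16 replicate 3 lies at the bottom for Lpl, Fabp3, Acadl, Pnpla2 and Ppara.

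In the carnitine shuttle both measured members had positive values, although Slc25a20 was at -0.046 with quantile normalization. Slc25a20, the carrier that exchanges acylcarnitine for carnitine across the inner membrane, ran from 6286 to 11444 with a median of 8803 in JA16 samples and from 5892 to 10349 with a median of 8979 in Saline samples. Its log2 fold change was 0.016 (SE 0.11), and 0.042 was its SE with the replicate block, the smallest of the members. Cpt2, which rebuilds acyl-CoA inside the mitochondrion, stood at 0.08 (SE 0.15) with a higher JA16 sample in 7 of 10 pairs.

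The acyl-CoA dehydrogenases catalyse the first step of each cycle, each on a range of chain lengths, and all 4 had negative values with a median of -0.055, although with array medians centred Acadvl (0.039) and Acads (0.038) were positive. Acadl, the long-chain enzyme, ranged from 3667 to 8648 with a median of 7305 in JA16 samples and from 6740 to 10009 with a median of 7362 in Saline samples. Its low end came from a single sample, JA16 replicate 3, since the other JA16 samples began at 6216. The log2 fold change of -0.15 (SE 0.13) was -0.05 without that sample. Acadvl, the very-long-chain enzyme, stood at -0.03 (SE 0.13), and at 0.05 without JA16 replicate 3. Acadm, whose upstream sequence is printed above, stood at -0.08 (SE 0.15) with 5 pairs on each side. Acads, the short-chain enzyme, had the widest SE of the members at 0.298 around a value of -0.03.

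The later steps of the cycle had 1 of 6 members at a positive value and a median of -0.038, although with array medians centred Hadha (0.011), Hadhb (0.058) and Acaa2 (0.052) were positive as well. Hadha stood at -0.06 (SE 0.12) and Hadhb at -0.01 (SE 0.12). Other Hadhb probe sets gave -0.015 and -0.43, the latter with a mean of 223 in JA16 and 300 in Saline samples. JA16 minus Saline fell on the same side of 0 for Hadha and Hadhb in 6 of 10 pairs. Any link to the start region they share, printed above, was not tested. Echs1, the short-chain enoyl-CoA hydratase, stood at -0.14 (SE 0.28), and between -0.25 without JA16 replicate 8 and -0.01 without JA16 replicate 3 with 1 sample left out in turn. Hadh, the short-chain hydroxyacyl-CoA dehydrogenase, was the positive member at 0.04 (SE 0.10), with a lowest, median and highest intensity of 12126, 15420 and 21104 in JA16 samples and 11298, 15647 and 17525 in Saline samples. Acaa2, the thiolase for medium and long chains, had 6650, 10942 and 16740 in JA16 samples and 5658, 10651 and 12904 in Saline samples. Both groups overlapped for both genes, with the highest sample in JA16 and the lowest in Saline. Acaa2 stood at -0.02 (SE 0.16), and Acat1, the acetoacetyl-CoA thiolase, at -0.12 (SE 0.12), or -0.047 without JA16 replicate 8.

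Auxiliary enzymes, which handle double bonds that the main cycle cannot, stood at 0.016 for Eci1, 0.08 for Eci2 and -0.03 for Decr1, with SEs of 0.12, 0.11 and 0.15. The electron transfer flavoprotein passes electrons from the dehydrogenases to ubiquinone through Etfdh. Its subunit Etfa stood at -0.09 (SE 0.10), Etfb at 0.09 (SE 0.19) and Etfdh at -0.14 (SE 0.20). With 1 sample left out in turn Etfdh ran from -0.23 without JA16 replicate 10 to -0.061 without JA16 replicate 1. By array set, Etfdh was at 0.10 in replicates 7 to 10 and -0.29 in replicates 1 to 6, and Etfa was at 0.06 in replicates 7 to 10 and -0.19 in replicates 1 to 6. Neither difference between the sets was tested.

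Release and export of fatty acids held the highest values of the set. Pnpla2, adipose triglyceride lipase, which opens triglyceride hydrolysis in lipid droplets, had 1465, 3221 and 6302 as its lowest, median and highest intensity in JA16 samples and 1559, 2225 and 4515 in Saline samples. JA16 replicate 8 lay above and JA16 replicate 3 below every Saline sample, and the other JA16 samples lay within the Saline range. The log2 fold change was 0.25 (SE 0.26; limma adjusted p = 0.9998), with a higher JA16 sample in 7 of 10 pairs, and with the replicate block its limma adjusted p was 0.239 (SE 0.095, unadjusted p = 0.0204). With 1 sample left out in turn it ran from 0.12 without JA16 replicate 8 to 0.35 without JA16 replicate 3. A second probe set, with a mean of 70.9 ± 37.3 in JA16 and 65.3 ± 21.8 in Saline samples (SD, n = 10 each), gave 0.037.

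Ucp3, the muscle uncoupling protein, had 641, 1052 and 1895 as its lowest, median and highest intensity in JA16 samples and 585, 904 and 1498 in Saline samples. The groups overlapped almost wholly. Its log2 fold change was 0.19, with an SE of 0.19 without and 0.13 with the replicate block. With the block it was 0.51 (SE 0.18) within replicates 7 to 10 and -0.02 (SE 0.14) within replicates 1 to 6. Whether the sets differ was not tested. Over all replicates it was 0.10 without JA16 replicate 6 and 0.11 without Saline replicate 7. Its other probe set gave 0.30. Acot2, a mitochondrial thioesterase that frees fatty acids from acyl-CoA, stood at -0.02 (SE 0.25).

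Malonyl-CoA turnover was represented by Acacb, the carboxylase that makes it at the mitochondrion, and Mlycd, the decarboxylase that removes it. Acacb had a lowest, median and highest intensity of 5330, 6983 and 9957 in JA16 samples and 4708, 6654 and 9450 in Saline samples, with a log2 fold change of 0.03 (SE 0.13). The groups shared nearly all of their range. Mlycd stood at 0.10 (SE 0.25).

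The regulators gave 1 positive and 3 negative values, of which Ppard turned to 0.062 with array medians centred. Ppara, the fatty acid sensing nuclear receptor PPARα, had 47.1, 197 and 277 as its lowest, median and highest intensity in JA16 samples and 121, 183 and 361 in Saline samples. Replicate 3 gave the 47.1, which is below the mean intensity of 50.1 that a probe set needed to be tested. The other JA16 samples began at 155, inside the Saline range. Its log2 fold change was -0.17 (SE 0.27) with that sample and 0.05 without it, and its 3 probe sets disagreed in sign, the other 2 at -0.41 and 0.13. Ppargc1a, which encodes the coactivator PGC-1α, ran from 624 to 2535 with a median of 1182 in JA16 samples and from 777 to 2616 with a median of 1299 in Saline samples. The log2 fold change was -0.18 (SE 0.26), with 5 pairs on each side, and the other 4 probe sets also gave negative values, from -0.33 to -0.09. With 1 sample left out in turn the value ran from -0.29 without JA16 replicate 5 to -0.066 without JA16 replicate 8. Ppard, PPARδ, stood at -0.01 (SE 0.22), and Esrra, the estrogen-related receptor ERRα, at 0.09 (SE 0.16).

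Within single pairs most members often lay on the same side of 0, and the side differed between pairs. In pair 3 the JA16 sample was below the Saline sample for 29 of the 31 members, with a median of -0.35, although 51.5% of all genes were lower there. In pair 2 JA16 was above for 26 members, with a median of 0.18, against 45.7% of all genes. Pair 7 had the same count of 26 with a median of 0.21, and pair 1 had 6 higher and 25 lower. The SD of the 10 pair medians was 0.165. The median over all genes ran from -0.033 to 0.028 over the 10 pairs.

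**Figure D3:**
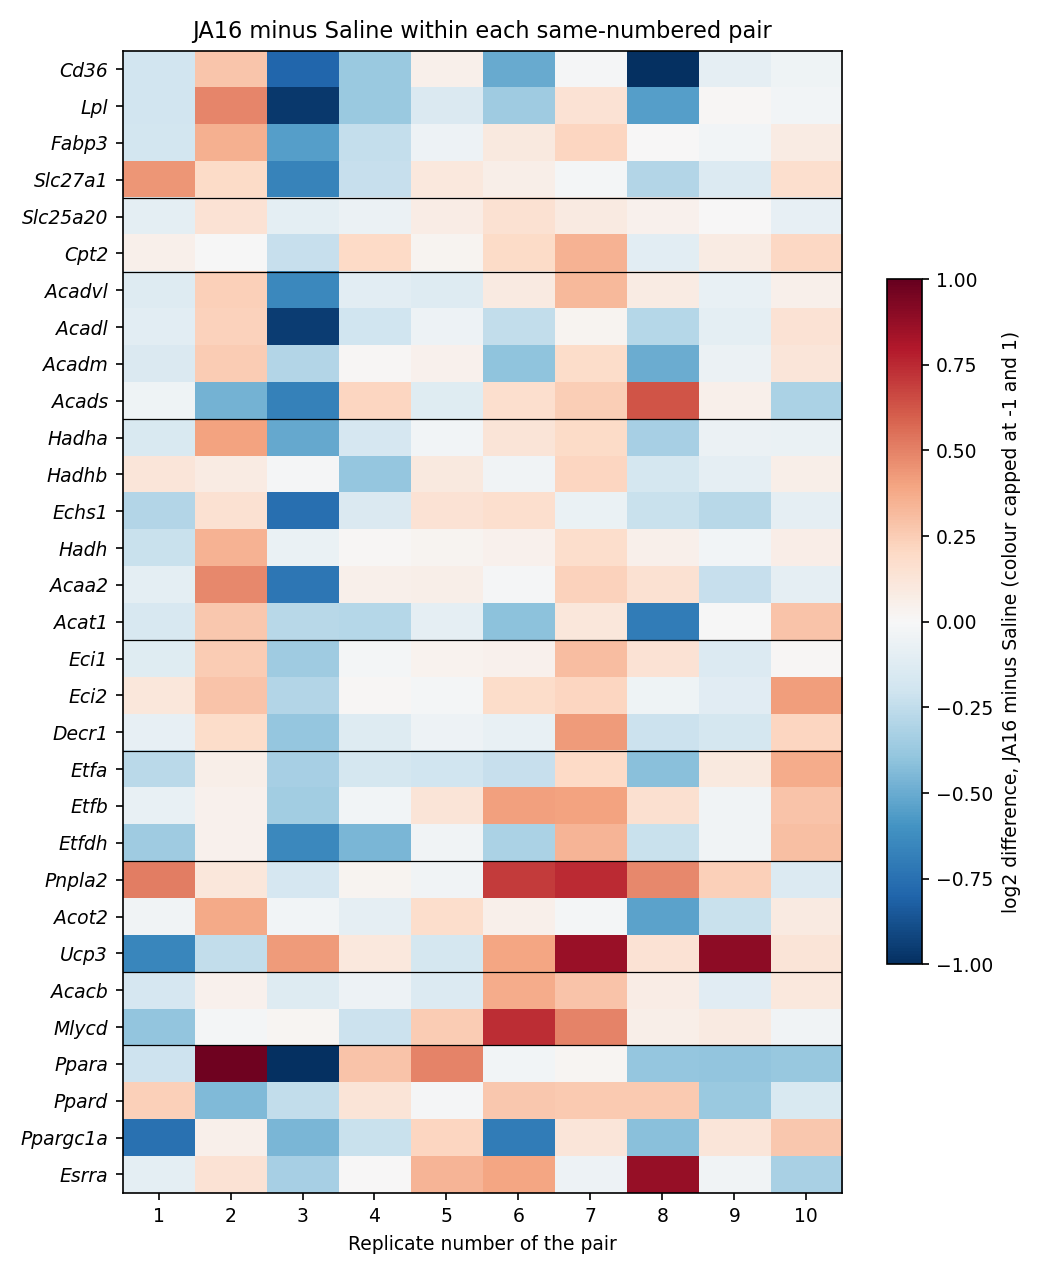
Log2 difference of each member within each of the 10 pairs, JA16 minus Saline (colour, capped at -1 and 1), with genes down the page in order of role and pair numbers along the x axis; blue is lower and red higher in JA16, and lines part the roles. Pair 3 is blue for 29 of the 31 genes, and pairs 2 and 7 are red for 26 each.

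Among the JA16 samples, replicate 3 had the lowest intensity for 13 of the 31 members, against 9.91% of all genes, and the lowest of all 20 samples for 11, against 6.10%. Those 13 were Lpl, Fabp3, Cpt2, Acadvl, Acadl, Hadha, Echs1, Decr1, Etfb, Pnpla2, Mlycd, Ppara and Esrra. Averaged over the members, it lay 0.48 (log2) below the mean of all samples, while the other JA16 samples lay between -0.14 and 0.24. Without it, 21 of the 31 members had positive values, against 47.6% of all genes, with a median of 0.027 over the members and -0.011 over all genes. Leaving it out moved 26 members up and turned the sign of 10. With the replicate block and pair 3 left out, 19 had positive values with a median of 0.029, against 47.4% of all genes with positive values.

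Saline replicate 7 was the lowest of all 20 samples for another 11 members, against 13.0% of all genes, and lay 0.37 below the mean of all samples over the members. Without it, 7 members had positive values with a median of -0.077, against 46.2% of all genes with positive values. With both samples left out, 12 had positive values, against 47.0% of all genes, and the median over the members was -0.024. No member passed the test in any of these comparisons.

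Several marker lists were low in JA16 replicate 3, the slow fibre list most of all. The 10 slow fibre markers summed to an intensity of 8214 in that sample, while the other JA16 samples began at 50185, and Saline samples ran from 54832 to 122799. Myh7, the slow myosin heavy chain, was at 389 in that sample, against 2387 to 19076 in the other JA16 samples. All 10 markers were lower in pair 3, with a median of -4.12. Over all samples the 10 had negative values with a median of -0.49, and -0.17 without JA16 replicate 3, and none passed the test. Elsewhere the order differed between the marker and member means. JA16 replicate 2 had the highest slow fibre mean of all samples, at 1.24, and a member mean of 0.24. The highest member mean, 0.25, was in Saline replicate 8, whose slow fibre mean of 0.23 was below the 0.85 of Saline replicate 4, where the member mean was 0.013. The 11 fast fibre markers gave 8 positive values with a median of 0.046, but the fast myosin Myh2 was at 1933 in JA16 replicate 3, against 14304 to 23486 in the other JA16 samples. The endothelial markers summed to 13682 in that sample, the lowest of all 20, and 9 of 10 were lower in pair 3 with a median of -0.44. Of the adipocyte markers 7 of 8 were lower in pair 3, with a median of -1.22. The part of fibre and cell makeup in the member values was not tested.

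**Figure D4:**
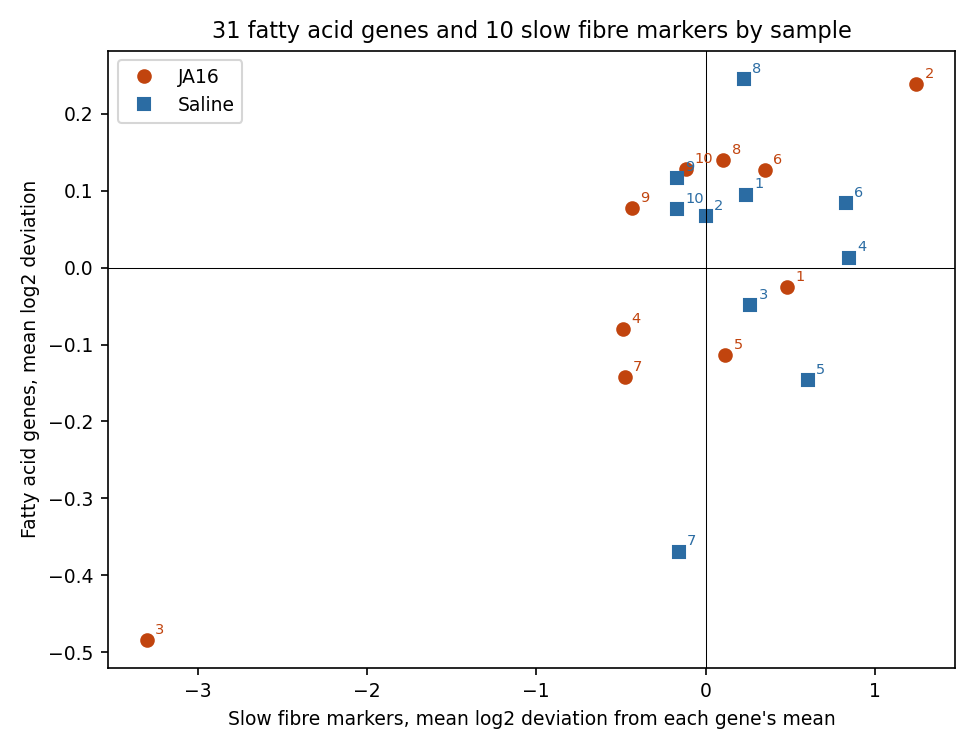
Mean deviation of the members from their all-sample means (y axis, log2) against that of the 10 slow fibre markers (x axis, log2), 1 point per sample, JA16 as circles and Saline as squares, labelled by replicate number. JA16 replicate 3 lies at -3.30 and -0.48, away from the other 19 samples.

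Some members differed in level between the array sets, as did a share of all genes. Among JA16 samples, 5 members (Acads, Echs1, Decr1, Etfb and Etfdh) were higher in every one of replicates 7 to 10 than in any of replicates 1 to 6, and 3 (Acadm, Hadh and Acot2) were lower in all. Among all genes the shares were 9.48% and 10.0%. Among Saline samples the counts were 3 and 6, against 11.2% and 11.9% of all genes. Within the array sets, 20 of the 31 members had positive values in replicates 7 to 10, with a median of 0.060, against 45.1% of all genes with positive values. In replicates 1 to 6 there were 9, with a median of -0.039, against 49.2% of all genes with positive values.

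The rest of the pathway was read from a list of 108 further genes, of which 96 were tested. They split into 46 with positive and 50 with negative values, with a median of -0.0089, and 0 passed the adjusted threshold in either fit. With the replicate block 11 of the 96 had an unadjusted p under 0.05, a smaller share than the 16.2% of all genes. The genes named next with that fit were picked from the list by their p, so their values are a description. Prkag2, a regulatory subunit of the energy sensor AMPK, had 281, 331 and 542 as its lowest, median and highest intensity in JA16 samples and 194, 299 and 415 in Saline samples, and JA16 was higher in 10 of 10 pairs, at a log2 fold change of 0.34 (SE 0.16). With the block its limma adjusted p was 0.136. Prkaa1, the AMPK α1 catalytic subunit, stood at -0.45 with 9 of 10 pairs lower, and its adjusted p in the blocked limma fit was 0.169. Acot8, a peroxisomal thioesterase, stood at 0.30 with 9 of 10 pairs higher, the nuclear receptor Rxrg at 0.29 with 8 higher, and the deacetylase Sirt1 at -0.35 with 9 lower. Their adjusted p-values in the blocked limma fit were 0.175, 0.199 and 0.193. In the limma fit without the block the adjusted p was 0.9998 for Prkag2, Prkaa1, Acot8, Rxrg and Sirt1. SEs without the block were 0.25 for Prkaa1, 0.16 for Acot8, 0.26 for Rxrg and 0.38 for Sirt1. These genes, like the members, passed in neither fit. Pdk4, the kinase that turns pyruvate oxidation down, stood at 0.088, and Cpt1a, the liver form of carnitine palmitoyltransferase 1, at -0.07. Plin5, a droplet coat protein of oxidative tissue, stood at -0.0084 and at 0.19 without JA16 replicate 3. Gpihbp1, which anchors lipoprotein lipase on capillaries, stood at 0.098. Angptl4, an inhibitor of that lipase, stood at 0.37 (SE 0.45) over all samples. It was at -0.50 within replicates 7 to 10 and at 0.96 within replicates 1 to 6, and whether the sets differ was not tested.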

How the data were processed

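Expression was measured in 10 JA16 and 10 Saline gastrocnemius samples, and samples were grouped by their labels. The deposited values are linear array intensities per probe set, made with MAS5, per the submitters' processing notes. For MAS5, the version, scaling and masking are not given in the sources used. RNA was extracted with Trizol and amplified with a NuGEN Ovation kit, per the labels' protocols. Every array has a mean intensity of 500 after trimming 2% of probe sets at each end, so scaling removed any factor common to an array.

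The table held 45101 probe sets, 64 of them controls; the platform annotation lists 1 gene for 34945, several for 932 and none for 9160, and genes were named only from the first. Gene identifiers matched the RefSeq table for 34741 of these, with 0 symbols updated. The 5 intensities at or below 0 were set to 0.1. Probe sets with a mean log2 intensity of at least 5.65 (an intensity of 50.1) were kept, 1 per gene, which left 11200 genes. Groups were compared on log2 intensity with limma 3.58.1 in R 4.3.3 (lmFit and eBayes with an intensity trend, two-sided), adjusted by Benjamini-Hochberg over all 11200 genes, at a threshold of 0.05. The code was tested on simulated data. Tables were made with pandas 2.3.3 and numpy 2.4.6 under Python 3.11.15, and figures with matplotlib 3.10.9. The number of arrays limits the precision.

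Replicate numbers come from the labels. Samples sharing a number deviated together from their group's mean, with correlations of 0.377 to 0.786 in all 10 pairs, above the limit of 0.1. The median between other samples was -0.11, but these include samples of the other array set. The best match in the other group had the same number for 5 of 10 JA16 and 6 of 10 Saline samples. The numbers were taken to pair samples, though array set was not separated from pairing in this check. The Saline array number is the lower one in each pair, so array order and treatment cannot be told apart. The fit without the replicate block is the main one.

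The members and gene lists were chosen with earlier results of these data known. Further pathway genes are named where their unadjusted p was under 0.01 in either fit, as are Pdk4, Cpt1a, Plin5, Gpihbp1 and Angptl4. Full ranges are given for members with an unadjusted p under 0.05 in either fit, members moved by over 0.15 (log2) without JA16 replicate 3, the 5 with the highest mean, and Cd36, Lpl, Fabp3, Acadl, Ucp3, Acacb, Ppara and Ppargc1a. Alternatives were quantile normalization, centring of array medians, an offset of 16, no filter, averaged probe sets, leaving out cross-matching probe sets, array weights, array set as a block or within sets, and each replicate left out. Leaving out JA16 replicate 3 with Saline replicate 7 was added after seeing the data.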

Additional observations from a re-analysis of the deposited data

Results flagged for a closer look

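Within each group of 10 samples, the gap between the lowest or highest sample and its neighbour was set against the group's whole range (on the log2 scale), with Dixon's 95% critical value as the limit. This was done for 64 groups of values, and 7 exceeded the limit; chance flags about 1 in 20 groups. JA16 replicate 3 was far below the other JA16 samples for Ppara (gap share 0.672), Acadl (0.615) and the mean over the members (0.473). Saline replicate 7 was far below the other Saline samples for Acaa2 (0.632), Eci1 (0.618) and Hadhb (0.4662). JA16 replicate 8 was far below the other JA16 samples for Acat1 (0.531), the acetoacetyl-CoA thiolase, at 4693 against a highest JA16 value of 9262. None of these genes passed the test between JA16 and Saline, and the causes were not tested.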

How the results depend on the processing

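No member passed the adjusted threshold under any alternative run, and none of the named results has a call to lose. Counts over all genes and signs of many member values did depend on the processing, and the cause was not tested. The replicate block raised the genes called to 31, against 4 without it, and changed no member's call. The count was 2 with array medians centred, 10 with medians centred and the block, 29 with quantile normalization and the block, 9 with array set as a block, 12 with the block and without pairs 3 and 7, and 0 within either array set by limma with the block (1099 genes at an unadjusted p under 0.05 in replicates 1 to 6 and 799 in replicates 7 to 10). Leaving out 1 sample gave 2 to 5 genes without the block, with 2 when JA16 replicate 1, 3, 6, 7, 9 or 10 or Saline replicate 3, 5 or 8 was out, and leaving out 1 pair gave 10 to 51 with it. Members with positive values numbered 21 with array medians centred, where the median over all genes shifted to 0.054, 20 within replicates 7 to 10, 4 with array weights and 17 with the block and without pairs 3 and 7. The shares of all genes with positive values were 61.3%, 45.1%, 42.4% and 50.1% in that order. Leaving out 1 sample or pair gave 7 to 21, with 7 without Saline replicate 7 and 21 without JA16 replicate 3. The median over the members ran from -0.077 to 0.029 then, above 0 without JA16 replicate 3 or 7 or Saline replicate 8. An offset of 16, no filter, averaged probe sets, cross-matching probe sets left out and array set as a block turned no member's sign. With quantile normalization, with or without the block, the sign turned for Slc25a20 (-0.046), Acads (0.00019), Hadh (-0.034), Eci1 (-0.021), Acacb (-0.011), Ppard (0.061). With array medians centred, with or without the block, the sign turned for Fabp3 (0.039), Slc27a1 (0.031), Acadvl (0.039), Acads (0.038), Hadha (0.011), Hadhb (0.058), Acaa2 (0.052), Decr1 (0.040), Acot2 (0.046), Ppard (0.062). Within replicates 1 to 6 the sign turned for Eci1 (-0.028), Acot2 (0.076), Ucp3 (-0.023), Acacb (-0.013). Within replicates 7 to 10 the sign turned for Fabp3 (0.068), Acadvl (0.10), Acads (0.15), Hadhb (0.0038), Acaa2 (0.016), Decr1 (0.060), Etfa (0.060), Etfdh (0.10), Ppargc1a (0.026). With array weights the sign turned for Slc25a20 (-0.058), Cpt2 (-0.056), Hadh (-0.0095), Eci1 (-0.085), Eci2 (-0.023), Acacb (-0.042), Esrra (-0.0011). Without JA16 replicate 3 and Saline replicate 7 the sign turned for Slc25a20 (-0.042), Acadvl (0.026), Acads (0.073), Echs1 (0.0012), Hadh (-0.016), Eci1 (-0.024), Decr1 (0.019), Acacb (-0.0036), Ppara (0.036). With the block and without pairs 3 and 7 the sign turned for Fabp3 (0.0044), Slc27a1 (0.038), Acadvl (0.0030), Acads (0.015), Acaa2 (0.039), Ppara (0.044). Leaving out 1 sample or pair turned the sign of some values, whose ranges were Fabp3 at -0.075 to 0.028, Slc27a1 at -0.11 to 0.034, Acadvl at -0.083 to 0.053, Acads at -0.19 to 0.080, Acaa2 at -0.11 to 0.061, Decr1 at -0.080 to 0.032. The further ranges were Ppara at -0.29 to 0.047, Ppard at -0.13 to 0.086, Slc25a20 at -0.045 to 0.068, Hadh at -0.011 to 0.078, Eci1 at -0.061 to 0.060, Hadha at -0.11 to 0.0011. The last were Hadhb at -0.077 to 0.030, Acacb at -0.033 to 0.078, Acot2 at -0.15 to 0.10, Mlycd at -0.0017 to 0.21.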
